A study of Mus musculus with 2 samples.

Results

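The genes of a protease cascade of the outer epidermis were followed by single-cell RNA-seq in mouse dorsal skin. The 7 members are Spink5, Klk5, Klk6, Klk7, Klk8, Klk10 and St14, taken as every row of the count matrices with one of these symbols. Each symbol matched 1 row, so that 7 of 33904 measured genes are described here. There was 1 Ctrl library, from skin given 100% ethanol without an active agent, and 1 AD library, from skin given MC903 (calcipotriol, a vitamin D analogue used to trigger dermatitis) in ethanol at 4.5 nmol per application. In both, female C57BL/6J mice of 7 weeks had their dorsal hair removed with depilatory cream, were treated daily and were sampled on day 10. The number of mice behind a library was not given in the sources used here. With 1 library per condition there is no replicate check. No test was run, and the intervals given in parentheses are at the 95% level and reflect counting alone.

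Kallikreins are secreted serine proteases. In the granular and cornified layers they cut the desmosomal proteins that hold corneocytes together, so that the surface is shed. KLK5 and KLK7 are the best known of them there, and KLK5 can activate itself and other kallikreins. SPINK5 encodes LEKTI, a multidomain inhibitor of kallikreins that is secreted by the same upper layers, and its loss causes Netherton syndrome, with premature shedding and atopic inflammation. ST14 encodes matriptase, a membrane serine protease that acts upstream of this cascade.

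The 5 kallikrein members lie together, with Klk9 among them, on the plus strand of chromosome 7, within 70.1 kb (chr7:43781035-43851181, GRCm38). Their order is Klk10, Klk9, Klk8, Klk7, Klk6, Klk5. St14 (ENSMUSG00000031995) lies on the minus strand of chromosome 9 (chr9:31089402-31131853). A transcript on the other strand, 2310002F09Rik, overlaps Klk8 and Klk10, and a pseudogene, Gm16071, overlaps St14. The 250 bases before the start of Klk10, Klk8 and Klk7 are shown because Klk10 and Klk7 differed in opposite directions between the libraries, and Klk8 lies between them. They are from RefSeq on GRCm38.p6, plus strand, 5′ to 3′, at chr7:43780804-43781053 (Klk10), chr7:43797327-43797576 (Klk8) and chr7:43811044-43811293 (Klk7). Capitals mark TTAAAA.
Klk10: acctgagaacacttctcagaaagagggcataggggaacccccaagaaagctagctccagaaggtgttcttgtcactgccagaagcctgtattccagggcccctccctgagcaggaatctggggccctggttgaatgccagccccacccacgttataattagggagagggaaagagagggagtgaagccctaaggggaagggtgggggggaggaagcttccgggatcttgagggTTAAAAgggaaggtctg
Klk8: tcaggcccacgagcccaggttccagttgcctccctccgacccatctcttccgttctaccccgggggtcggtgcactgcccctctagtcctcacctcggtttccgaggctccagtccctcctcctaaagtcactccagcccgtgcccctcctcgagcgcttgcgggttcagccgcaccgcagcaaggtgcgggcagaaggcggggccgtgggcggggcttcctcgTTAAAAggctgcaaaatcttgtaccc
Klk7: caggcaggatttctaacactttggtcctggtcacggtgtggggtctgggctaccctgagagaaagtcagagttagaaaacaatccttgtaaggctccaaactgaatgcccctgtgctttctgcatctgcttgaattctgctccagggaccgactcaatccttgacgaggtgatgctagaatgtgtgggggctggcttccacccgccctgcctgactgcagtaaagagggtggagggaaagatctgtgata
TTAAAA began 17 bases before the start of Klk10, 26 bases before that of Klk8 and 68 bases before the second start of Klk6, and no such window of Klk5 or Klk7 held it. Searched on both strands, it is present in 17.7% of 32851 promoters of this length, and it was chosen after these sequences had been seen. None of the 5 kallikreins had TGANTCA (AP-1, in 6.75% of promoters), AGGTCA (a half-site of nuclear receptors, in 14%) or AACCGGTT (grainyhead-like factors, in 0.116%) in these windows. The motifs share no bases in the sequences shown. Of the 7 members, Klk5, Klk6, Klk7, Klk8 and Klk10 had an entry in the promoter table.

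The members were counted in 11399 Ctrl and 8179 AD cells that passed the filter, with 105195951 and 61645227 unique molecules (UMIs) and a median of 7813 and 6330 UMIs per cell. Keratinocytes (KCs) were 2256 cells (19.8%) in Ctrl and 409 (5.0%) in AD, and 29 cell barcodes occurred in both libraries. KCs were sub-clustered in each library without the members among the genes used, and a class was named "-like" from marker genes. In Ctrl, 84 cells were basal-like, 470 suprabasal-like and 847 hair follicle-like, and in AD 47 were suprabasal-like and 98 hair follicle-like. No AD sub-cluster was basal-like. A further 328 Ctrl and 241 AD cells scored for hair follicle markers while basal genes led them, and these are called basal-led here. Levels are given as CPM, in which a gene's UMIs are divided by all UMIs of the same class. They count molecules and do not scale with gene length, so members can be set beside each other.

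The AD suprabasal-like cells went partly against their name. All 11 suprabasal markers counted for this sub-cluster (AD 1), but these markers summed to 15013 CPM against 67965 CPM in Ctrl suprabasal-like cells, and the 11 basal markers to 8932 CPM against 1074 CPM. Krt10, a keratin of the layers above the basal one, stood at 2086 CPM in AD and 24397 CPM in Ctrl. Krt14, a basal keratin, stood at 5954 CPM in AD and 426 CPM in Ctrl. The leading genes of AD 1 were Cyp24a1, Cstdc5, Krt14, Krt6a and Cst6, with Tslp and Krt16 among the first 10, and Ly6d was the single suprabasal marker among them. Krt14 is a basal and Cst6 an infundibulum marker, so the name passed on a tie. The Ctrl class held 3 sub-clusters. Ctrl 10 (135 cells) was led by Krt1, Krt10 and Krt77, genes of the spinous layer. Ctrl 13 (113 cells) was led by Flg, Krt77 and Lor, of which Flg and Lor are granular genes. Ctrl 8 (222 cells) was led by Cst6, Krt79, Krt1 and Defb6, with as many infundibulum as suprabasal markers among its first 10 genes. Markers of other cells were low in both, with 7 dFB markers summing to 479 CPM in Ctrl and 39.5 CPM in AD, 7 T cell markers to 152 and 119 CPM (4 at 0 in AD: Cd3e, Cd3g, Trdc and Cd2) and 7 macrophage markers to 16.5 and 3.36 CPM. The part of these differences in make-up in the comparisons of the libraries was not tested, and values against each sub-cluster are therefore given.

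**Figure D1:**
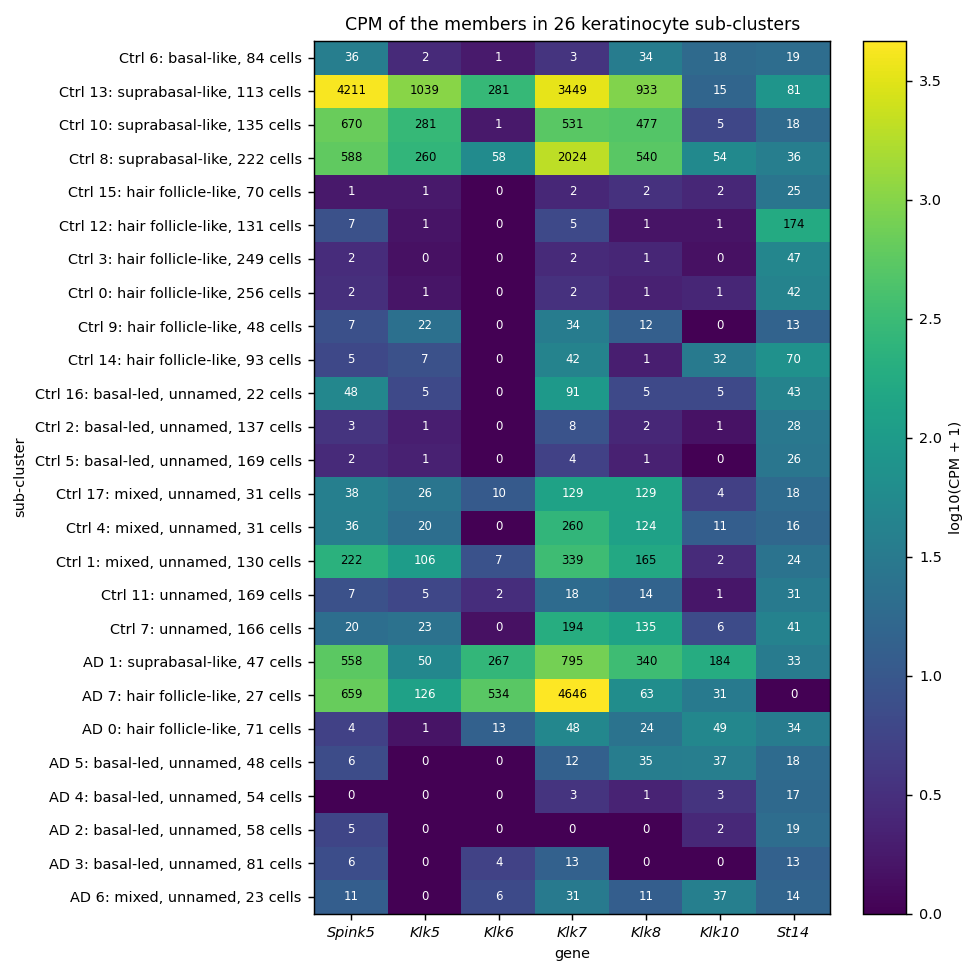
CPM of the 7 members (columns) in the 26 KC sub-clusters (rows, with class and number of cells); color shows log10(CPM + 1) and the numbers are CPM. Spink5, Klk5, Klk7 and Klk8 are highest among Ctrl sub-clusters in Ctrl 13, whereas St14 is highest in Ctrl 12, a hair matrix sub-cluster.

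In Ctrl skin the cascade was steeply layered. Of the Ctrl UMIs of Spink5, 94.4% were in suprabasal-like cells, and the same class held 91.8% of Klk5, 95% of Klk6, 90.7% of Klk7, 81.8% of Klk8 and 68.1% of Klk10 UMIs. St14 was different, with 24.4%. From the basal-like cells to the spinous sub-cluster and on to the granular one, the inhibitor and the main proteases went up together.

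Spink5 (ENSMUSG00000055561), the inhibitor, stood at 36.4 CPM (26.4 to 49.1) in Ctrl basal-like cells, 670 CPM (638 to 702) in the spinous sub-cluster and 4211 CPM (4140 to 4284) in the granular one. A Spink5 UMI was found in 113 of 113 granular cells, 110 of 135 spinous cells and 18 of 84 basal-like cells. These 3 levels did not overlap in their counting intervals, and Ctrl 8, at 588 CPM (561 to 616), was below the spinous sub-cluster. In hair follicle-like cells Spink5 was at 3.12 CPM (2.21 to 4.29), and in dermal fibroblasts (dFBs), which serve as background, at 4.25 CPM.

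In AD suprabasal-like cells Spink5 was at 558 CPM (516 to 602), from 664 UMIs, against 1919 CPM (1890 to 1949) from 16753 UMIs in Ctrl. The ratio of AD over Ctrl was −1.78 on the log2 scale (−1.90 to −1.67), a level 3.44-fold lower in AD. This AD level came from few cells. A UMI was found in 13 of 47 AD cells (27.7%, 15.6 to 42.6), against 386 of 470 Ctrl cells (82.1%, 78.4 to 85.5), and 1 AD cell held 349 of the 664 UMIs (52.6%). With all cells thinned to 1000 UMIs, the shares were 9.30% of 43 AD cells and 47.5% of 457 Ctrl cells, so the lower share remained at equal depth. The background share in dFBs was 3.36% in Ctrl and 0.169% in AD, at median depths of 8315 and 6561 UMIs.

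Klk5 (ENSMUSG00000074155; chr7:43841971-43851181), the protease that starts the cascade, was at 1.69 CPM (0.205 to 6.12) in Ctrl basal-like cells, 281 CPM (260 to 302) in the spinous and 1039 CPM (1004 to 1075) in the granular sub-cluster. In AD suprabasal-like cells it was at 49.6 CPM (37.8 to 64.0) from 59 UMIs, against 547 CPM (532 to 563) from 4775 UMIs in Ctrl. This log2 ratio of −3.46 (−3.86 to −3.09), an 11-fold lower level, was the lowest of the 7 members. It was found in 10 of 47 AD cells (21.3%, 10.7 to 35.7) and 354 of 470 Ctrl cells (75.3%, 71.2 to 79.2). At 1000 UMIs per cell it was seen in 0 of 43 AD cells (exact interval up to 8.22%) and 31.9% of 457 Ctrl cells.

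Klk7 (ENSMUSG00000030713; chr7:43811294-43816359), a chymotrypsin-like enzyme that cuts corneodesmosin, was the most abundant member in Ctrl suprabasal-like cells. It stood at 2.54 CPM (0.524 to 7.43) in basal-like cells, 531 CPM (503 to 560) in Ctrl 10, 2024 CPM (1974 to 2075) in Ctrl 8 and 3449 CPM (3385 to 3515) in Ctrl 13. Spink5 was below Klk7 in Ctrl 8 and above it in Ctrl 10 and Ctrl 13. In AD suprabasal-like cells Klk7 was at 795 CPM (745 to 847) from 946 UMIs, against 2105 CPM (2074 to 2135) from 18369 UMIs in Ctrl, a log2 ratio of −1.40 (−1.5 to −1.31). It was found in 17 of 47 AD cells (36.2%, 22.7 to 51.5) and 398 of 470 Ctrl cells (84.7%, 81.1 to 87.8), and 3 AD cells held 67.1% of its AD UMIs. Thinned to 1000 UMIs, the shares were 20.9% and 65.2%.

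Klk8 (ENSMUSG00000064023; chr7:43797577-43803826), also known as neuropsin, was found beyond the upper layers. It was already at 33.9 CPM (24.2 to 46.1) in Ctrl basal-like cells, and reached 477 CPM (451 to 505) in Ctrl 10, 540 CPM (514 to 567) in Ctrl 8 and 933 CPM (900 to 968) in Ctrl 13. In AD suprabasal-like cells it was at 340 CPM (307 to 374) from 404 UMIs, against 664 CPM (647 to 681) from 5793 UMIs in Ctrl. The log2 ratio of −0.97 (−1.12 to −0.82) stayed within 2-fold. Klk8 was found in 27 of 47 AD cells (57.4%, 42.2 to 71.7), the highest share of the 7 members in this class of AD, and in 417 of 470 Ctrl cells (88.7%, 85.5 to 91.4). Thinned, the shares were 16.3% and 36.5%.

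Klk10 (ENSMUSG00000030693; chr7:43781035-43785410) and Klk6 (ENSMUSG00000050063; chr7:43824499-43832030) were the least abundant of the kallikrein members in Ctrl skin. They were the 2 members that were higher in AD suprabasal-like cells. Klk10 was at 184 CPM (161 to 210) in AD suprabasal-like cells, from 219 UMIs, and at 25.4 CPM (22.2 to 29.0) in Ctrl, from 222 UMIs. The log2 ratio was 2.86 (2.58 to 3.13), a 7.24-fold higher level. The share of cells moved the same way, with Klk10 in 24 of 47 AD cells (51.1%, 36.1 to 65.9) and 68 of 470 Ctrl cells (14.5%, 11.4 to 18.0), and 9.30% against 1.75% after thinning. In Ctrl, 2 cells held 65 and 44 of the 222 Klk10 UMIs, whereas in AD the highest cell held 37 of 219. In the AD basal-led cells Klk10 stood at 8.90 CPM (5.51 to 13.6), against 0.520 CPM (0.0629 to 1.88) in the Ctrl basal-led cells, with 11 of the 21 AD UMIs in 1 cell.

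Klk6 was a granular gene in Ctrl, at 281 CPM (263 to 300) in Ctrl 13, 57.5 CPM (49.3 to 66.7) in Ctrl 8 and 0.788 CPM (0.0955 to 2.85) in Ctrl 10. In AD suprabasal-like cells it was at 267 CPM (239 to 298) from 318 UMIs, against 122 CPM (114 to 129) from 1062 UMIs in Ctrl, a log2 ratio of 1.14 (0.95 to 1.32). The share of cells was alike, at 12 of 47 (25.5%, 13.9 to 40.4) in AD and 122 of 470 (26%, 22.1 to 30.2) in Ctrl. The higher AD level lay in few cells, since 1 cell held 184 of the 318 UMIs (57.9%) and 3 cells held 89.3%.

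St14, matriptase, followed the layers only in part. In Ctrl it was at 17.7 CPM in the spinous cells, 36.2 CPM in Ctrl 8 and 81.3 CPM in the granular cells. Among the KC classes described here, it was highest in Ctrl in hair follicle-like cells, at 62.8 CPM (58.4 to 67.4), then suprabasal-like cells, at 47.1 CPM (42.6 to 51.9), basal-led cells, at 28.1 CPM (23.0 to 33.9), and basal-like cells, at 19.5 CPM (12.3 to 29.2). The last 2 of these intervals overlapped, and KCs of unnamed sub-clusters were at 35.6 CPM (30.6 to 41.1). The sub-cluster with the highest level was Ctrl 12, at 174 CPM (155 to 194), with a UMI in 107 of 131 cells (81.7%). Its leading genes Mt4, Krt35, Lef1, Hoxc13 and Shh are genes of the hair matrix and shaft. In AD, St14 was at 32.8 CPM (23.3 to 44.8) in suprabasal-like, 33.3 CPM (25.3 to 43.0) in hair follicle-like and 16.9 CPM (12.1 to 23.1) in basal-led cells. The log2 ratios of −0.52 (−1.04 to −0.05) in suprabasal-like and −0.92 (−1.33 to −0.53) in hair follicle-like cells stayed within 2-fold.

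**Figure D2:**
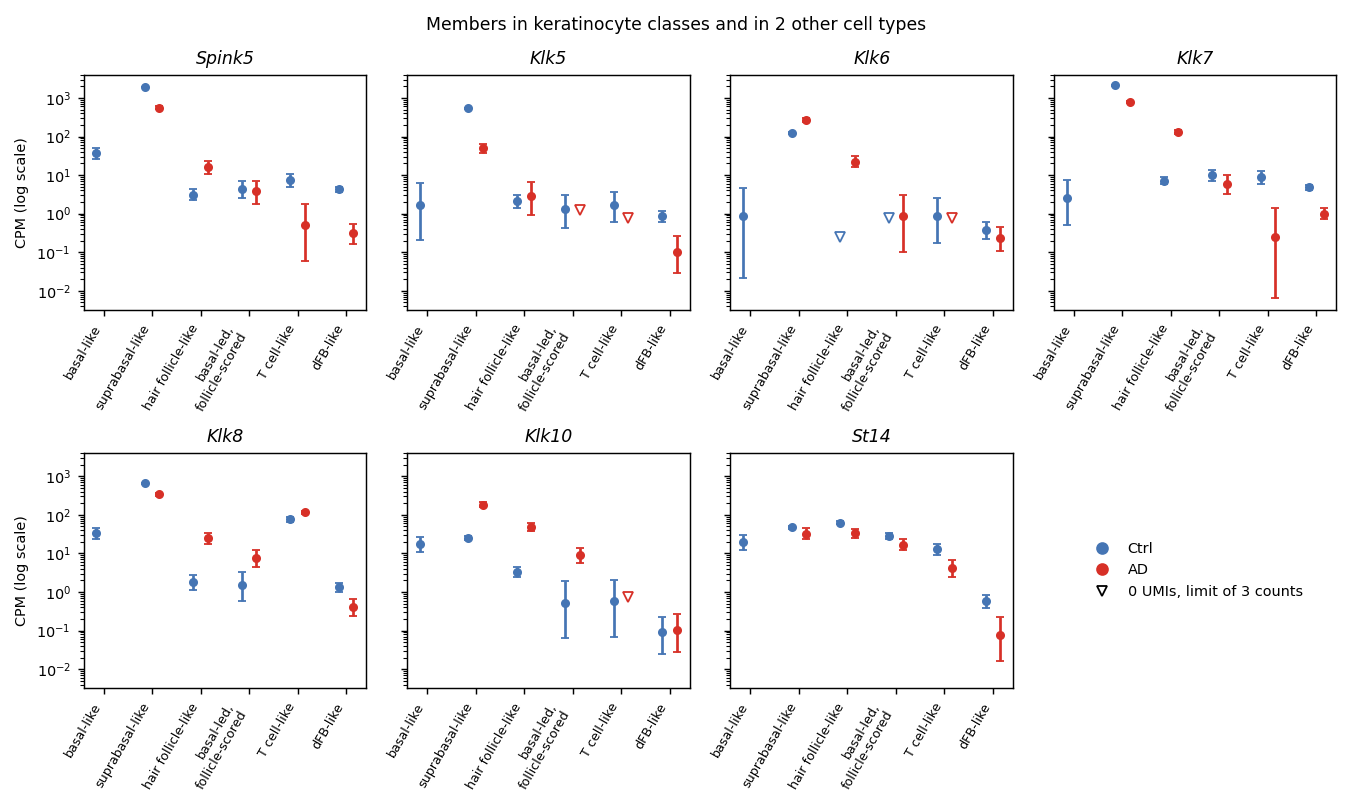
CPM on a log axis in 4 KC classes, T cells and dFBs, for Ctrl (blue) and AD (red), with 95% Poisson intervals from summed UMIs of 1 library each; open triangles mark 0 UMIs and stand at the limit that 3 counts give. In suprabasal-like cells Spink5, Klk5, Klk7 and Klk8 lie lower in AD, Klk6 and Klk10 lie higher, and Klk8 is also present in T cells of both libraries.

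Of the 7 members, 5 were past 2-fold between AD and Ctrl suprabasal-like cells, Klk6 and Klk10 higher and Spink5, Klk5 and Klk7 lower. A gene was counted as past 2-fold where its log2 ratio reached that size and the interval excluded 0. Among all 8530 genes counted in this class, 35.5% were past 2-fold, 21.2% higher and 14.3% lower in AD, with a median log2 ratio of 0.21. The members' median was −0.97. These counts rest on 47 AD cells, and with all barcodes, a stricter filter, doublets left out or a resolution of 0.5 no AD sub-cluster met the naming rule. Klk6 came within 2-fold without the Ctrl Krt79 sub-cluster, at 0.78 (0.59 to 0.96), as the mean of per-cell CPM, at 0.32 (0.13 to 0.50), with all barcodes and classes named from markers alone, at 0.01 (−0.13 to 0.15), and after thinning, at 0.16 (−1.10 to 1.21). Klk8 was past 2-fold and lower under these same 4 settings. After thinning Klk10 was at 1.41 with an interval that held 0 (−0.63 to 3.04), and it was not counted as past 2-fold. Klk7 came within 2-fold at a resolution of 2.0, at −0.76 (−0.85 to −0.66). The 5 kallikreins summed to 1636 CPM (1564 to 1710) in AD and 3462 CPM (3423 to 3502) in Ctrl, a log2 ratio of −1.08 (−1.15 to −1.02). Against the spinous cells alone the sum was higher in AD, at 0.34 (0.26 to 0.42), and it was lower against Ctrl 8, at −0.84 (−0.92 to −0.77), and the granular cells, at −1.81 (−1.87 to −1.74).

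Klk10 and Klk5 kept their direction against each Ctrl sub-cluster. Klk10 was higher in AD, with log2 ratios of 5.17 (4.36 to 6.10) against the spinous cells, 1.78 (1.48 to 2.08) against Ctrl 8 and 3.66 (3.19 to 4.15) against the granular cells. Klk5 was lower, at −2.50 (−2.91 to −2.12), −2.39 (−2.80 to −2.01) and −4.39 (−4.79 to −4.02). Klk8 was also lower against all 3, at −0.49, −0.67 and −1.46.

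For the other members the direction or the size turned on which Ctrl cells were compared. Spink5 was close to the spinous cells and to Ctrl 8, with log2 ratios of −0.26 (−0.39 to −0.13) and −0.08 (−0.21 to 0.05), and far below the granular cells, at −2.92 (−3.03 to −2.80). Without the 2 AD cells that held most of its UMIs, described next, Spink5 was below all 3, at −1.79 (−2.0 to −1.59) against the spinous cells, −1.61 (−1.82 to −1.40) against Ctrl 8 and −4.45 (−4.65 to −4.25) against the granular cells. The Ctrl sub-clusters kept all their cells in these ratios. Klk7 was above the spinous cells, at 0.58 (0.46 to 0.70), and below Ctrl 8 and the granular cells, at −1.35 (−1.45 to −1.25) and −2.12 (−2.21 to −2.02). Klk6 was above the spinous cells, which held 2 UMIs of it, at 8.41 (6.54 to 11.46), and above Ctrl 8, at 2.22 (1.94 to 2.49), but near the granular cells, at −0.07 (−0.26 to 0.11). St14 ran from 0.89 (0.23 to 1.54) against the spinous cells to −1.31 (−1.84 to −0.82) against the granular cells. Members past 2-fold were 3 of 7 against the spinous cells (all genes, 33.6%, and 20.3% higher), 4 of 7 against Ctrl 8 (all genes, 27.0%, and 15.3% higher) and 6 of 7 against the granular cells (all genes, 52.4%, and 36.0% higher).

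**Figure D3:**
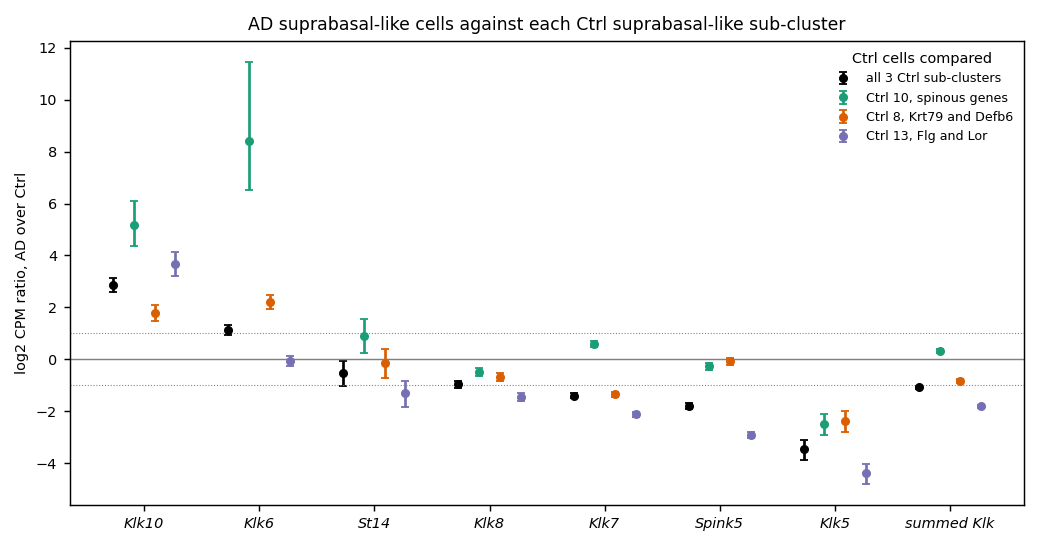
The log2 ratio of CPM in the 47 AD suprabasal-like cells over Ctrl, for each member and the 5 summed kallikreins, against all 3 Ctrl sub-clusters (black) and each of them (colors), with 95% intervals for counting error; dotted lines mark 2-fold. Klk10 is above 0 and Klk5 and Klk8 are below 0 in every comparison, whereas Klk6, Klk7, St14 and the sum lie on both sides.

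Within the AD class, most Spink5 UMIs lay in 2 cells that held almost none of those of Klk6 and Klk10, the kallikrein members higher in AD. Detection overlapped more, with a Spink5 UMI in 8 of 12 AD cells with Klk6 and 9 of 24 with Klk10. KCs with at least 10 UMIs of Krt1, Krt10, Krt5 and Krt14 were placed by the share of Krt1 and Krt10 among them. In AD, 2 suprabasal-like cells were over 90% Krt1 and Krt10, and they held 67.3% of the Spink5 UMIs of the class, 54.2% of the Klk5 UMIs, 0 of 318 Klk6 UMIs and 1 of 219 Klk10 UMIs. In the 39 AD suprabasal-like cells under 10%, Klk10 was at 197 CPM, Klk6 at 289 CPM and Klk8 at 358 CPM, and Spink5 at 147 CPM. In Ctrl, 334 suprabasal-like cells were over 90%, and these held 95.3% of Spink5 and 77.9% of Klk10 UMIs. Without the 2 AD cells, the log2 ratio of Spink5 was −3.31 (−3.51 to −3.12), with the 334 Ctrl cells over 90% still in. Among suprabasal-like cells under 10%, Spink5 was instead higher in AD, against 107 CPM in 51 Ctrl cells, at 0.46 (0.01 to 0.93). In AD, 1 cell held 86 of the 160 Spink5 UMIs there. Klk6 and Klk10 were also higher in these cells, at 3.54 and 2.69, and Klk5, Klk7 and St14 lower, at −1.94, −0.95 and −1.15. Klk8 was near level there, at −0.06 (−0.31 to 0.19). Over 90%, Spink5 was at 1.62 (1.48 to 1.76), from the 2 AD cells.

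The same split was made over KC sub-clusters of any class, leaving out mixed ones and those scored as matrix and shaft, inner sheath or sebaceous. Of these, 290 AD cells were under 10% Krt1 and Krt10, 3 were at 10 to 50%, 0 at 50 to 90% and 2 over 90%. The matching Ctrl numbers were 673, 58, 33 and 334. In the cells under 10%, Klk6 was at 69.3 CPM (62.1 to 77.0) in AD and 1.78 CPM (0.995 to 2.93) in Ctrl, a log2 ratio of 5.28 (4.54 to 6.14). Klk10 was at 64.8 CPM (57.9 to 72.3) and 7.35 CPM (5.64 to 9.42), a log2 ratio of 3.14 (2.75 to 3.56). Spink5 was here higher in AD, at 35.7 CPM (30.7 to 41.4) against 14.1 CPM (11.7 to 16.9), and Klk5 was lower, at 5.86 CPM (3.92 to 8.41) against 12.2 CPM (9.97 to 14.8). Klk7 and Klk8 were also higher in AD, at log2 ratios of 0.48 (0.36 to 0.61) and 0.77 (0.58 to 0.97). Without the AD cell that held most UMIs of the gene, these were 0.11 (−0.02 to 0.25) and 0.38 (0.17 to 0.58). The summed kallikreins were at 1.00 (0.91 to 1.09), and St14 was lower, at −0.56 (−0.87 to −0.25). Most of these AD UMIs were those of the 39 suprabasal-like cells already described, 315 of 343 for Klk6, 215 of 321 for Klk10 and 160 of 177 for Spink5. In the cells outside that class (251 in AD and 622 in Ctrl), Klk10 was higher in AD, at 27.5 CPM against 5.81 CPM, a log2 ratio of 2.24 (1.73 to 2.77), and Klk6 had 28 AD and 2 Ctrl UMIs. Klk5 was lower there, with 3 and 55 UMIs, and Spink5 was at 4.40 CPM from 17 UMIs in AD and at 7.97 CPM in Ctrl, which gave a log2 ratio of −0.86 (−1.72 to −0.06). Klk7 and Klk8 were also lower in AD outside that class, at −0.54 (−0.83 to −0.25) and −1.05 (−1.49 to −0.64). The higher Spink5 of the whole split rested on 1 AD cell with 86 UMIs, and without it the log2 ratio was 0.40 (−0.01 to 0.80). With the left-out sub-clusters put back (306 AD and 1073 Ctrl cells), the interval of Klk5 reached 0, at −0.58 (−1.21 to 0.01).

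The balance of inhibitor to proteases was then read as the share of Spink5 among the UMIs of Spink5 and the 5 kallikreins. In Ctrl it was 34.1% (32.8 to 35.4) in the spinous, 42.4% (41.9 to 43.0) in the granular and 16.7% (16 to 17.4) in the Krt79 sub-cluster, and 35.7% (35.2 to 36.1) over the class. In AD suprabasal-like cells it was 25.4% (23.8 to 27.2), with 2.93 kallikrein UMIs for each Spink5 UMI against 1.80 in Ctrl. The AD value rested on few cells, and without the 2 AD cells over 90% Krt1 and Krt10 it was 10.8% (9.48 to 12.2), below each of the 3 Ctrl sub-clusters. Those sub-clusters kept their own cells over 90%. In suprabasal-like cells under 10%, Spink5 and the kallikreins had 160 and 1754 UMIs in AD and 56 and 1023 in Ctrl. Spink5 thus took a larger share in AD there, though 1 AD cell held 86 of its 160 UMIs. The make-up of the kallikreins differed as well. Klk7 was the largest part in both, at 48.6% in AD and 60.8% in Ctrl, but Klk6 and Klk10 made up 16.3% and 11.3% of the AD kallikrein UMIs against 3.51% and 0.735% in Ctrl, and Klk5 3.03% against 15.8%.

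Cells with a kallikrein but no Spink5 UMI took a larger part in AD than in the pooled Ctrl class. Of Ctrl suprabasal-like cells with any of the 5 kallikreins, 380 of 454 also had a Spink5 UMI (83.7%, 80.0 to 87.0). In AD it was 11 of 34 (32.4%, 17.4 to 50.5). All 113 granular cells had both. At 1000 UMIs per cell it was 54.2% (48.9 to 59.4) of 360 Ctrl cells and 18.8% (4.05 to 45.7) of 16 AD cells. The Ctrl sub-clusters differed among themselves, and Ctrl 8, with 30.8% (24.2 to 38.0) of 182 cells, lay within the AD interval. By gene and without thinning, the part of AD cells with Spink5 was 80.0% for Klk5, 66.7% (34.9 to 90.1) for Klk6 and 58.8% for Klk7. It was 33.3% for Klk8 and 37.5% (18.8 to 59.4) for Klk10.

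**Figure D4:**
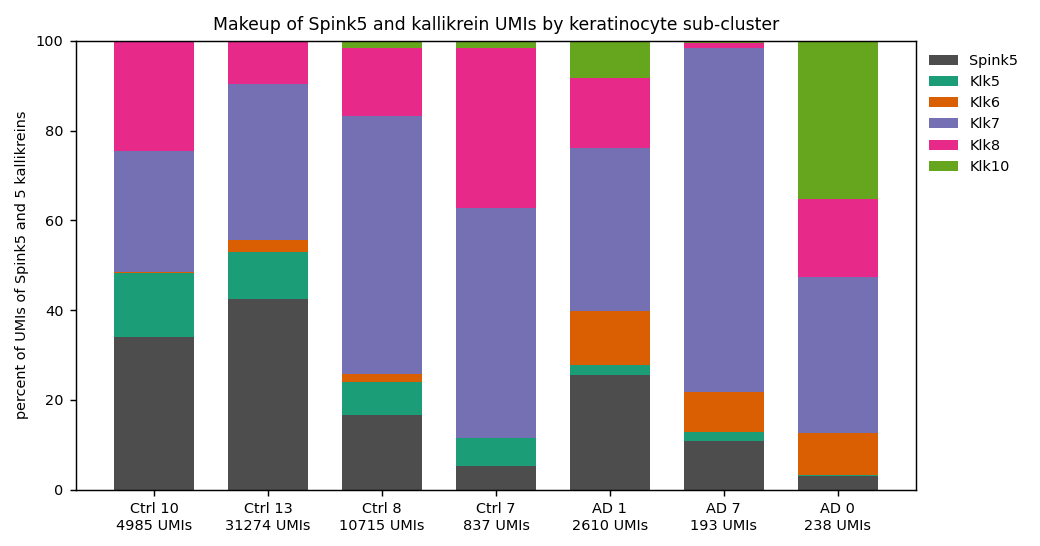
Percent of the summed UMIs of Spink5 and 5 kallikreins that each gene took, in 7 KC sub-clusters (number of UMIs under each bar). Spink5 takes 42.4% in the granular Ctrl 13 and 25.4% in AD 1, and Klk10 takes a visible part in AD 1 and AD 0.

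Hair follicle-like cells held little of the cascade in Ctrl. Spink5 was at 3.12 CPM, Klk5 at 2.14 CPM, Klk7 at 7.23 CPM, Klk8 at 1.81 CPM and Klk10 at 3.37 CPM, beside a dFB background of 4.25 CPM for Spink5 and 4.81 CPM for Klk7. Klk6 had 0 UMIs in 847 cells. In AD hair follicle-like cells Spink5 was at 16.1 CPM (10.7 to 23.2), Klk6 at 22.4 CPM (15.9 to 30.6), Klk7 at 133 CPM (116 to 151), Klk8 at 24.7 CPM (17.9 to 33.2) and Klk10 at 48.8 CPM (38.9 to 60.3). These 5 of 7 members were past 2-fold and higher in AD, where 32.1% of 9153 genes were past 2-fold and 11.0% were higher. The log2 ratios were 2.36 for Spink5, 4.2 for Klk7, 3.77 for Klk8, 3.86 for Klk10 and at least 6.5 for Klk6, the last set against 3 counts in Ctrl. Klk5 had 5 AD UMIs and stayed within 2-fold. A shallow sub-cluster of 27 cells with a median of 833 UMIs (AD 7) held 21 of the 28 Spink5 UMIs and 148 of the 231 Klk7 UMIs. With AD 0 alone, Spink5 came within 2-fold, at 0.39 (−1.02 to 1.57), and Klk7 was at 2.75 (2.30 to 3.20), Klk8 at 3.73 and Klk10 at 3.87.

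The 2 libraries held different follicle cells under this name. In Ctrl, sub-clusters of 256, 249, 131 and 70 cells scored as matrix and shaft and those of 93 and 48 cells as outer sheath and bulge, whereas all 98 AD cells were in 2 sub-clusters scored as infundibulum and isthmus (AD 0 and AD 7). Among Ctrl cells, the sub-cluster with infundibulum genes (Ctrl 8, Krt79 and Defb6) was in the suprabasal-like class, and stood well above AD 0 in Klk7, at 2024 CPM against 48.5 CPM, in Klk8, at 540 CPM against 24.0 CPM, and in Spink5, at 588 CPM against 4.09 CPM. Klk10 was alike in these 2 sub-clusters, at 53.6 CPM (45.7 to 62.5) and 49.1 CPM (39.1 to 60.8), with 65 of the 163 Ctrl 8 UMIs in 1 cell. The shallow AD 7 differed from AD 0, with Klk7 above Ctrl 8 and a Spink5 interval that held the level of Ctrl 8. Its values are given under other observations, and Klk8 made up 1.16% of its kallikrein UMIs. In AD 0, Spink5 was 2.94% of the UMIs of Spink5 and the kallikreins, and Klk10 was the largest kallikrein there, at 36.4% of kallikrein UMIs. The part of this difference in make-up in the AD over Ctrl ratios was not tested. The direction also turned with the clustering: at a resolution of 0.5, with classes named from markers alone, Klk7 had a log2 ratio of −1.26 (−1.56 to −0.96), Klk8 of −0.89 and Spink5 of −0.88, and Spink5 was at −0.0074 (−0.59 to 0.53) at a resolution of 2.0.

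Basal-like cells could be read in Ctrl, but no AD sub-cluster was basal-like to set beside them. Under 8 other settings that gave AD basal-like cells, the directions went both ways. With all barcodes (303 AD and 347 Ctrl cells) Spink5, Klk5, Klk7 and Klk8 were past 2-fold and lower in AD. With interfollicular cells split by their keratins (45 and 318 cells) Spink5, Klk6, Klk8 and Klk10 were higher. All 45 of those AD cells were from AD 1, the suprabasal-like sub-cluster of 47 cells, and are not a separate basal population. In these 8 settings Spink5, Klk7 and Klk8 took both directions, while Klk6 and Klk10, where past 2-fold, were higher and Klk5, where past it, was lower. In the 84 Ctrl cells Spink5 (43 UMIs), Klk8 (40 UMIs) and Klk10 (21 UMIs) were the leading members, and Klk5, Klk6 and Klk7 had 1 to 3 UMIs each. All 11 basal markers were counted in these cells, and so were 7 suprabasal markers, with Ly6d among the 10 leading genes. The nearest AD cells were the basal-led ones, in which Klk7 was at 5.93 CPM (3.24 to 9.95) and Spink5 at 3.81 CPM (1.74 to 7.24), against 10.1 CPM (7.21 to 13.9) and 4.42 CPM (2.57 to 7.07) in Ctrl basal-led cells. Those intervals overlapped. Klk8, at 7.63 CPM (4.52 to 12.1) in AD and 1.56 CPM (0.572 to 3.39) in Ctrl, was higher in AD.

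Outside KCs, Klk8 was the member with the most UMIs, and most of these were in T cells. T cells had it at 76.0 CPM from 267 UMIs in Ctrl and 116 CPM from 462 UMIs in AD, in 209 of 946 cells (22.1%) and 235 of 624 cells (37.7%). After thinning, the shares were 7.91% and 8.90%. In the same T cells Spink5 was at 7.40 and 0.502 CPM, Klk7 at 8.82 and 0.251 CPM, and Klk5, Klk6 and Klk10 were at 0 in AD. Klk8 thus made up 86.4% of the kallikrein UMIs of Ctrl T cells and 99.8% of those of AD T cells, against 20.2% and 19.3% in KCs, and 1.33 and 0.414 CPM of it were found in dFBs. The 12 keratinocyte markers summed to 496 CPM in Ctrl T cells and 99.5 CPM in AD T cells. The 7 dFB markers summed to 6863 CPM and 1560 CPM in the same cells. The log2 ratio of Klk8 in T cells was 0.61 (0.39 to 0.83). St14, with 17 AD and 45 Ctrl UMIs, was past 2-fold and lower in AD T cells, at −1.58 (−2.48 to −0.75), where 8.49% of genes were lower and 2.98% higher. Spink5 and Klk7, with 2 and 1 AD UMIs against 26 and 31, and Klk5, with 0 against 6, were under the 10 CPM that a gene needed to enter that share. The part of free RNA, or of the transcript antisense to Klk8, in these levels was not tested. In AD the highest level was in T cell cluster 12, at 155 CPM (138 to 172), where 144 of 256 cells had a UMI. Ctrl cells of this cluster were at 76.9 CPM (63.6 to 92.2). Its AD cells had Trac in 78.1%, Gata3 in 74.2%, Il4 in 23.0%, Nkg7 in 49.6% and Cd8a in 18.0%. In its Ctrl cells these were 56.5%, 49.4%, 0.296%, 72.8% and 31.1%. The part of this difference in make-up in the Klk8 levels was not tested. KCs had 47.2% of the AD library's Klk8 UMIs, against 94.2% in Ctrl. Klk8 UMIs in KCs numbered 469 in AD and 6672 in Ctrl, and those outside KCs 525 and 413. Mast cells (32.8 CPM in Ctrl from 10 UMIs, 43.0 CPM in AD from 6) and AD basophils (41.5 CPM from 17 UMIs) also carried Klk8.

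St14 was also found outside KCs. A T cell cluster with Trdc in 98.8% of Ctrl cells (cluster 26) held it at 83.5 CPM (55.5 to 121) in 26 of 83 Ctrl cells and at 51.0 CPM (22.0 to 100.4) in 6 of 49 AD cells. AD macrophages had St14 at 10.9 CPM from 33 UMIs. For Spink5, Klk5, Klk6, Klk7 and Klk10, KCs held 95.7 to 98.5% of the UMIs in Ctrl and 94.1 to 98.1% in AD.

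The filter on cells weighed on these members more in AD than in Ctrl, although it removed 6.82% of AD and 9.52% of Ctrl barcodes. Over all genes, the kept cells held 61645227 of 76106062 AD UMIs and 105195951 of 125184653 Ctrl UMIs. Barcodes with over 6000 genes, which the filter removes, numbered 229 in AD and 396 in Ctrl, and held 63.2% of all AD Klk10 UMIs, 60.1% of Klk7, 53.7% of Klk5, 49.9% of St14, 46.4% of Klk6, 41.8% of Klk8 and 39.8% of Spink5, against 3.53 to 19.2% of each in Ctrl. They had a median of 52391 UMIs in AD. Krt5 and Krt14 stood at 3276 CPM in these AD barcodes and Krt1 and Krt10 at 18.9 CPM, against 2092 and 2978 CPM in Ctrl. With all deposited barcodes, the KCs (536 in AD and 3455 in Ctrl) gave log2 ratios of 3.49 for Klk10, 1.41 for Klk6, −3.29 for Klk5, −1.99 for Spink5, −0.74 for Klk7, −0.54 for Klk8 and −0.36 for St14. In the filtered KCs these were 2.71, 1.00, −3.72, −2.03, −1.45, −1.23 and −0.86, so each member kept its direction. Klk7 and Klk8 came within 2-fold with all barcodes. Clusters were made and named anew for that setting, so the KCs compared differ by more than the filter. In the filtered KCs 6 of 7 members were past 2-fold, 2 higher and 4 lower, where 18.6% of 9298 genes were, 6.03% higher.

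**Figure D5:**
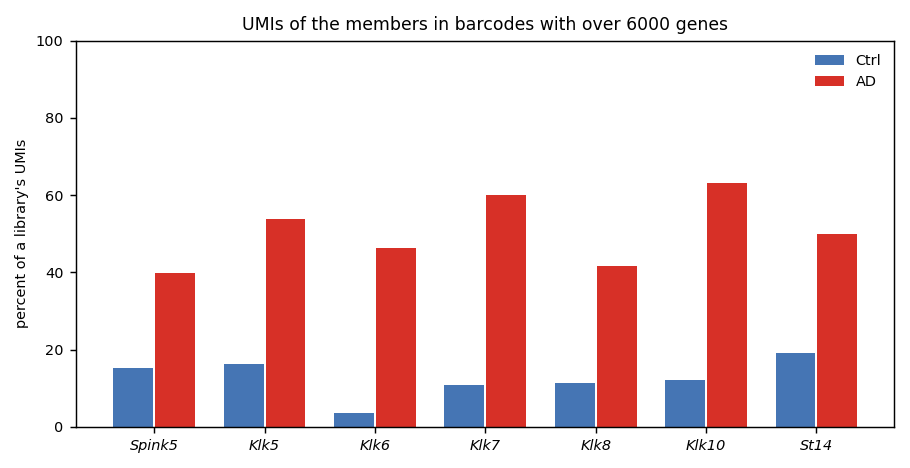
Percent of each member's UMIs in a library that lie in barcodes with over 6000 detected genes (396 in Ctrl, blue; 229 in AD, red). The AD bars run from 39.8 to 63.2% and the Ctrl bars from 3.53 to 19.2%.

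Of 52 other genes of the cascade and of cornification that were in the matrices, 37 were counted in suprabasal-like cells, 8 higher and 19 lower in AD past 2-fold and 10 within it. Their median log2 ratio was −1.64, where all genes had 0.21. Among all genes of this class 21.2% were higher and 14.3% lower, so the part that was higher was near that share. The all-gene shares higher and lower were 20.3% and 13.3% against the spinous cells and 15.3% and 11.7% against Ctrl 8. Against the granular cells they were 36.0% and 16.4%. The balance of higher and lower genes in the list turned on the Ctrl cells compared. Against the spinous cells 16 were higher and 13 lower (median 0.21), and against Ctrl 8, 13 were higher and 12 lower (median 0.10), whereas against the granular cells 8 were higher and 24 lower (median −1.78). Of the 8 other kallikreins, 3 were counted. Klk13 was higher, at 309 CPM in AD and 46.1 CPM in Ctrl (2.75), Klk11 was lower, at 13.4 and 102 CPM (−2.92), and Klk9 was at 54.6 and 73.3 CPM (−0.42).

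The protease inhibitors divided. Of 12 counted, 3 were higher and 5 lower, beside 21.2% and 14.3% of all genes. Against the granular cells 3 were higher and 6 lower, but against the spinous cells 6 of 11 were higher and 1 lower, and against Ctrl 8, 5 of 11 were higher and 1 lower. Slpi, an inhibitor of neutrophil elastase and related proteases, was at 261 CPM in AD and 6.42 CPM in Ctrl (5.35), and Stfa1, of the stefins, which inhibit cysteine proteases, at 754 and 69.0 CPM (3.45). Wfdc21 had 0 UMIs in AD and 4283 in Ctrl, a level at least 7.60 lower on the log2 scale. Spint1 and Spint2, which encode the inhibitors of matriptase, were at 50.4 and 134 CPM in AD and 54.2 and 166 CPM in Ctrl.

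The counts that follow stand beside 21.2% of all genes higher and 14.3% lower in suprabasal-like cells. Among 9 substrates and receptors counted, 2 were higher and 6 lower. Tslp, the cytokine that KCs release in this model, was at 956 CPM in AD and 3.55 CPM in Ctrl (8.07), the highest ratio of the list, and Flg, the filaggrin gene, was at 13.4 and 3780 CPM (−8.13), the lowest. F2rl1, the receptor PAR2 that KLK5 can cleave, was at 54.6 and 50.1 CPM (0.13). Of 9 other enzymes of cornification, 2 were higher and 4 lower, the lowest Asprv1 (37.0 and 1822 CPM, −5.62) and Casp14 (16 and 616 CPM, −5.27). Of 4 matriptase partners and other membrane proteases, 3 were lower and 1 was within 2-fold. Cst6 and Dsc1 of these lists were also markers used to name classes. In hair follicle-like cells 19 of the 52 were counted, 8 higher and 3 lower, where 11.0% of all genes were higher and 21.0% lower.

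Across 50 units (KC sub-clusters and other cell types of each library), the genes with the most similar pattern were named for each member by the Pearson correlation of log CPM over 14767 genes. This is a description, as the units share 2 libraries. Spink5 was closest to Ly6g6c (r = 0.95), Klk7 (0.93) and Krtdap (0.93), and Klk7 to Ly6g6c (0.93), Spink5 (0.93) and Defb6 (0.93). Klk5 was closest to Gsdma, Tprg and 2310046K23Rik (0.92 to 0.93), Klk6 to Prss27, Cdsn and Klk9 (0.82 to 0.86), Klk8 to Faah, Rgs20 and Gltp (0.78 to 0.84), and Klk10 to Cldn4, Lratd1 and Ly6d (0.79 to 0.81). St14 was closest to Spint2, its inhibitor (0.85), Tuft1 and Tmem54 (0.84 each).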

How the data were processed

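Single cells of treated mouse dorsal skin were captured with the 10x 3′ v3.1 chemistry. The deposited files hold whole UMI counts per gene and cell barcode, which the authors made with Cell Ranger against mm10. The version was 3.1.0 in the submitters' processing notes and 5.0.0 in the matrix headers, and the notes name Seurat 5.0 while the methods name other releases. The labels and the methods also name different digestion enzymes. No column belonged to another series (0). Of 33904 genes, 36 symbols occurred more than once, none of them a member.

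As in the authors' methods, a cell was kept with 200 to 6000 detected genes and no more than 10% of UMIs from mitochondrial genes. In scanpy 1.11.5 (Python 3.11.15), 2000 variable genes without the 60 members and pathway genes, 30 principal components, 20 neighbors and a resolution of 1.0 gave clusters, and KCs were then clustered again within each library. A marker counted where at least 10% of cells had it and its CPM + 10 reached 2 times that of the lower quartile of clusters. A name needed 3 markers. It was refused where another list had more markers among the 10 leading genes, and a tie passed. Scrublet called 395 cells (3.47%) in Ctrl and 0 in AD, so it had not worked in AD and no doublets were removed.

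UMIs were summed per class. CPM has exact Poisson intervals, ratios exact binomial ones and shares Clopper-Pearson ones (scipy 1.17.1). Cells were thinned to 1000 UMIs, and shallower cells were left out, for shares at equal depth. A gene at 0 was set at a limit of 3 counts. A gene entered the background where its CPM reached 10 in either library. UMIs within a cell are not independent samples of the condition, and the intervals cover counting error only. The scripts were checked on simulated data.

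The members and lists were chosen with earlier results of these data known. Sub-clustering per library, and the naming rule in its 3 versions, were chosen after the members' values had been seen. Members were all named, with the 4 highest and lowest genes of the pathway lists, the other pathway genes named being chosen after their values were seen, and the 3 most similar genes of each member.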

Additional observations from a re-analysis of the deposited data

Results flagged for a closer look

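In AD barcodes with over 6000 genes, which the filter removes and which enter only where all barcodes are used, Klk6 was at 24.2 CPM (21.6 to 27.0), against 2.28 CPM in the same kind of Ctrl barcodes. Klk10 was at 44.3 CPM (40.8 to 48.0) there, against 2.56 CPM in Ctrl. Both drew attention because the level in these removed AD barcodes was above that in Ctrl. The part of doublets in them was not tested.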

How the results depend on the processing

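No paired analysis was possible because there was 1 library per condition, and no library could be left out. Over 13 alternatives in suprabasal-like cells, Spink5, Klk5, Klk7 and Klk8 stayed below 0 and Klk6 and Klk10 above 0 in each, and St14 was below 0 in 12, the exception being cells thinned to 1000 UMIs, at 0.77 (−1.22 to 2.30). The settings without a check of leading genes, those without some cells, AD 0 alone, the split by keratins and the joint sub-clustering of both libraries were chosen after seeing the data.

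For Spink5 in suprabasal-like cells the log2 ratio was −1.23 at resolution 2.0, −3.92 with members and pathway genes put back, −1.46 after thinning, −3.31 without the 2 AD cells over 90% Krt1 and Krt10, and −2.24 without the Ctrl sub-cluster with Krt79. Without a check of leading genes it was −1.46, and then −3.39 with all barcodes, −1.38 with doublets left out and −1.57 at resolution 0.5. For the summed kallikreins it was −0.59 at resolution 2.0, −0.87 with members put back, −1.36 as the mean of per-cell CPM, −1.5 after thinning and −1.19 without the Krt79 sub-cluster. Without a check of leading genes it was −0.79, and then −1.90 with all barcodes, −1.0 with at least 500 genes and 1000 UMIs, −0.72 with doublets left out, −0.77 at resolution 0.5 and −0.87 with each library clustered alone. At 3-fold, 3 members were past the limit, and the share of all genes past 3-fold was not counted.

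In hair follicle-like cells Spink5 was at −0.0074 at resolution 2.0. Without a check of leading genes, Spink5 and Klk7 were at −0.86 and −1.75 with at least 500 genes and 1000 UMIs. At resolution 0.5, Spink5, Klk7, Klk8 and the summed kallikreins were at −0.88, −1.26, −0.89 and −0.43. With members put back, Spink5, Klk7, Klk8, Klk10 and the sum were at −5.59, −6.19, −2.78, −1.70 and −4.20, and Klk6 at most −2.26. The causes were not tested.

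With the leading genes checked, there was no AD suprabasal-like class for all barcodes, the stricter filter, doublets left out, resolution 0.5 or each library alone. The joint sub-clustering left 2 AD cells. Splitting interfollicular cells by their keratins also left 2, and it counted the other 45 cells of AD 1 as basal. Depth limits Klk5 and St14 in AD, with 59 and 39 UMIs.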

Other observations

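A sub-cluster of 27 shallow AD cells (AD 7, median 833 UMIs) was led by Cst6, Defb6, Krt79 and Klk7. Klk7 was at 4646 CPM (3928 to 5458) from 148 UMIs and was found in 26 of the 27 cells, above its level in the Ctrl granular cells. Spink5 stood there at 659 CPM (408 to 1008) from 21 UMIs and Klk6 at 534 CPM (311 to 855) from 17 UMIs, and St14 had 0 UMIs in 27 cells. At this depth 3 counts would be 94.2 CPM, above the level of St14 in the AD classes, so its level could not be read there. Of the UMIs of Spink5 and the 5 kallikreins, 10.9% were Spink5.

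KCs outside the named classes also carried the cascade in Ctrl. Ctrl 7 (166 cells), led by Krt14, Krt5 and Krt15 while scoring for suprabasal markers, had Klk7 at 194 CPM (176 to 214) and Klk8 at 135 CPM (120 to 151) but Spink5 at 20.4 CPM, so that Spink5 was 5.38% of the UMIs of Spink5 and the kallikreins. The 192 Ctrl cells of mixed sub-clusters had Spink5 at 166 CPM (151 to 181) and Klk7 at 294 CPM (275 to 313).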
